A study of Mus musculus with 9 samples.

Results

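The Cyp2 and Cyp4 genes encode cytochrome P450 enzymes, and 52 of them were followed here through the single-cell transcriptomes of mouse kidneys. A gene was a member when its symbol in the deposited gene lists began with Cyp2 or Cyp4 followed by a letter, held no hyphen, and had at least 20 UMIs (unique molecular identifiers, each counting 1 captured RNA molecule) summed over the 9 matrices. These criteria were met by 34 Cyp2 and 18 Cyp4 genes of the 32427 genes listed. Of the 70 symbols of this form without a hyphen, 18 stayed under the UMI minimum, and 2 further symbols were left out for their hyphen. The last members inside the limit were Cyp2b19 and Cyp2c66 with 20 UMIs each, and the first genes outside it were Cyp2c55 and Cyp2t4 with 18 each. The members were thus chosen by their level, so the levels below are a description.

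All animals were male C57BL/6 mice aged 6 weeks, assigned to groups following 1 week of adaptation, and 3 mice per group were sequenced. Control mice were injected with saline. AKI-CKD mice received cisplatin at 8 mg/kg into the peritoneum once a week for 4 weeks, a model of acute kidney injury that turns into chronic kidney disease, and AKI-CKD + EGT mice received the same cisplatin and drank ergothioneine (EGT, an antioxidant amino acid derivative) at 0.5 mg/mL from 3 days before it. Kidneys were taken after 8 weeks, and cells from part of a kidney of each mouse were captured in droplets by their poly(A) tails. Strain and sex were shared by all groups, and no group received EGT without cisplatin, so EGT was measured on top of the drug only.

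Cytochrome P450 enzymes of these families sit in the endoplasmic reticulum, receive electrons from P450 reductase and insert 1 oxygen atom into their substrates. In the kidney the Cyp2j and Cyp2c enzymes turn arachidonic acid into epoxides, and the Cyp4a enzymes hydroxylate its far end, giving lipids that act on vessel tone and on salt transport. Cyp2a, Cyp2d, Cyp2e and Cyp4b enzymes handle drugs, toxins, steroids and fatty acids, and several renal members are known to differ between male and female mice because androgens act on the proximal tubule.

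Near-identical copies occur in these families and bear on the values of some members below. Promoter sequence is shown for Cyp2a4 (a testosterone hydroxylase) and Cyp2a5 (a coumarin hydroxylase), whose copies can be mistaken for each other, and for Cyp2d26, the abundant member with the opposite distribution along the proximal tubule. Each line holds the 250 bases before the start of transcription from RefSeq on build GRCm38.p6, 5′ to 3′ on the gene's own strand. They lie at chr7:26306942-26307191 (plus strand) for Cyp2a4, chr7:26835089-26835338 (plus strand) for Cyp2a5 and chr15:82794246-82794495 (minus strand) for Cyp2d26. Capitals mark the letters TATAAA, searched on the gene's strand, and GTTAAT, a motif bound by the factor HNF1, searched on both strands.
Cyp2a4: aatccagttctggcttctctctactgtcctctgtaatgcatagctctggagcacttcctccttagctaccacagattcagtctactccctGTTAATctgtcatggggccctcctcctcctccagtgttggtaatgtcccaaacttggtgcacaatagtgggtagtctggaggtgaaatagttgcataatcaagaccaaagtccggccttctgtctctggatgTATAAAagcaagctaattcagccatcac
Cyp2a5: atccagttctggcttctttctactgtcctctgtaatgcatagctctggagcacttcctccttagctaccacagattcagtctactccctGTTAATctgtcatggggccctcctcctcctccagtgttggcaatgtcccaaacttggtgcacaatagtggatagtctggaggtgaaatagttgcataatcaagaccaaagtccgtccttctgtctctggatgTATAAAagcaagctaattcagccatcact
Cyp2d26: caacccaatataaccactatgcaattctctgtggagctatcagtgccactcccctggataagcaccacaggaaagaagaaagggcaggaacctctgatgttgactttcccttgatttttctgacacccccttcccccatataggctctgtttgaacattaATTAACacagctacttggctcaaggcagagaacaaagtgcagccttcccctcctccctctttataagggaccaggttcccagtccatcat
The Cyp2a4 and Cyp2a5 promoters could be turned into each other with 6 single-base changes, insertions or deletions over 250 bases. Both held TATAAA and GTTAAT, and Cyp2d26 held GTTAAT on the other strand (read there as ATTAAC), 90 to 85 bases before its start. Of the 39 members with a promoter in this table, 7 held TATAAA, against 8.12% of the 27025 promoters of the table, and 7 held GTTAAT, against 6.52%. The nuclear receptor motif AGGTCA was found on either strand in 6 members and in 13.8% of all promoters. A match of letters is a description, not a site.

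The same likeness reaches into the parts of the transcripts that were counted. Reads from poly(A) capture come from the end of a transcript, and 25 of the 52 members had, within the last 500 bases of their longest coding transcript, at least 1 run of 50 bases that also occurred in a transcript of another member. For Cyp2a4, 37.0% of these windows were also found in Cyp2a5. Cyp4a12a (in male mice the main enzyme of arachidonic acid omega-hydroxylation) shared 37.0% with Cyp4a12b. Cyp2d26 shared 25.7% of its windows, Cyp2d9 22.6% and Cyp2d12 18.8%, all with other Cyp2d genes. Cyp4b1, Cyp2j5, Cyp2j13 and Cyp2d22 shared none of their own windows. Windows of other members did occur in transcripts of some of these: those of Cyp2d26 and Cyp2d9 in Cyp2d22, of Cyp2j8 in Cyp2j5 and of Cyp2j7 in Cyp2j13. Whether reads from such windows entered the counts of Cyp2d22, Cyp2j5 or Cyp2j13 was not tested. The highest share was that of Cyp4a32, chosen after its values were seen, at 66.7%, with 55.7% of its windows found in Cyp4a10. Values of members that share windows, such as Cyp2a4, Cyp2a5, Cyp4a12a, Cyp4a12b, Cyp4a32, Cyp2d26, Cyp2d9 and Cyp2d12, are therefore uncertain as to the copy they came from.

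The 9 libraries held 70106161 to 101525691 UMIs each. After quality control 196925 of 216680 barcodes were kept, 17196 to 27463 per mouse, with median depths of 2534 to 2966 UMIs per cell. Losses were largest in AKI-CKD + EGT mouse 3 (17255 of 23876 barcodes kept) and Control mouse 1 (22985 of 27994). Mitochondrial genes made up 6.39% and 6.08% of the kept UMIs of these mice, against 1.55% to 4.46% in the others. Members took up 0.285% to 0.565% of the kept UMIs, with 0.361% in Control mouse 1 and 0.346% in AKI-CKD + EGT mouse 3. The lowest share was that of AKI-CKD mouse 2. That library stood apart in other proximal tubule RNA too: Kap, an androgen-responsive kidney gene, made up 5.03% of its UMIs and 6.70% to 11.5% in the others. Cell names were running numbers within each library, so barcodes common to several libraries could not be counted. Cell classes were rebuilt from marker genes, with Cyp2 and Cyp4 genes kept out of the genes that formed the clusters. Proximal tubule (PT) cells made up 158269 cells, 80.4% of those kept, of which 50276 fell into clusters with markers of the early segment (S1-like) and 63023 into clusters with markers of the late segment (S3-like). There were also 11373 distal convoluted tubule (DCT) cells, 6788 cells of the loop of Henle (LOH), 3621 endothelial cells, 3149 macrophages, 2466 principal cells and 1557 intercalated cells from the collecting duct, and 1648 lymphocytes (T and B cells). AKI-CKD + EGT mouse 3 differed in its cells, with 60.1% PT, 8.84% LOH and 13.8% DCT cells against 76.9% to 87.8%, 1.71% to 3.95% and 2.45% to 6.98% in the other mice.

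Cyp4b1, which oxidises fatty acids and plant toxins, dominated the family. It gave 46.3% of the 3293439 member UMIs in kept cells, and the 6 most abundant members together gave 87.8%, while 26 members had under 1000 UMIs. In PT cells the mean over the 9 mice was 2209 UMIs per 1000000 UMIs of the class (CPM) for Cyp4b1, with a range of 1256 to 3032. Next came Cyp2e1, the ethanol-oxidising form, at 796 (433 to 1273), and Cyp2j5, a renal arachidonic acid epoxygenase, at 547 (459 to 641). The mean was 243 for Cyp2d26, 203 for Cyp2j13 and 188 for Cyp2d12. The remaining 6 of the 12 most abundant PT members lay close together, from 79.2 for Cyp2a4 over Cyp4a31, Cyp2d9, Cyp2a5 and Cyp4a12a down to 56.5 for Cyp4a10, and the ranges of their 9 mice overlapped. These are UMI counts from transcript ends, not divided by transcript length, so the order between genes is one of captured molecules.

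Within the proximal tubule the members divided by segment. Of the 34 members with at least 200 UMIs in kept cells, 14 were higher in S3-like than in S1-like cells in all 9 mice, 9 were higher in S1-like cells in all 9, and 11 were mixed. The share of all genes that separated in this way is not given here, so these counts describe the members only. Cyp2a4 was 7.31-fold higher in S3-like cells (137 against 18.8 CPM, means of 9 mice), and Cyp2d9, a male-specific testosterone hydroxylase, 7.17-fold higher (117 against 16.3 CPM). The S3-like cells were also higher in the omega-hydroxylases Cyp4a10 (3.38-fold) and Cyp4a12a (2.17-fold), in Cyp2e1 (3.08-fold) and in Cyp4b1 (2.65-fold, 3157 against 1191 CPM). The opposite order held for Cyp2d26, 4.33-fold higher in S1-like cells (449 against 104 CPM), for Cyp2d12 (1.72-fold) and for Cyp2d22 (2.51-fold). Cyp2c68, chosen after its values were seen, had the widest ratio toward S1-like cells among these 34, at 16.1-fold (1.68 against 0.104 CPM). Cyp2j5 differed little, at 1.24-fold in favour of S3-like cells. A separate PT cluster of 229 cells, led by Serpina1 genes, held the highest mean Cyp2a4 level of any PT cells, 689 CPM, and Cyp2d9 at 273 CPM. It had 11 to 88 cells in 8 of the mice and 3 cells in AKI-CKD + EGT mouse 3, whose Cyp2a4 level of 89.9 CPM rested on 1 UMI. Cyp2d9 and Cyp2d26, of 1 subfamily, thus lay on opposite sides of this split. The lower side of these ratios was at or under the level in lymphocytes, given below as background, for Cyp4b1 (1191 against 1218 CPM), Cyp2e1 (386 against 464), Cyp2a4, Cyp2d9, Cyp4a10 and Cyp4a12a in S1-like cells and for Cyp2d26 (104 against 159), Cyp2d22 and Cyp2c68 in S3-like cells. By that measure those levels could not be told from background, and how much of it the ratios hold was not tested. As a cell class was set against another in the same mice, no test was made.

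**Figure D1:**
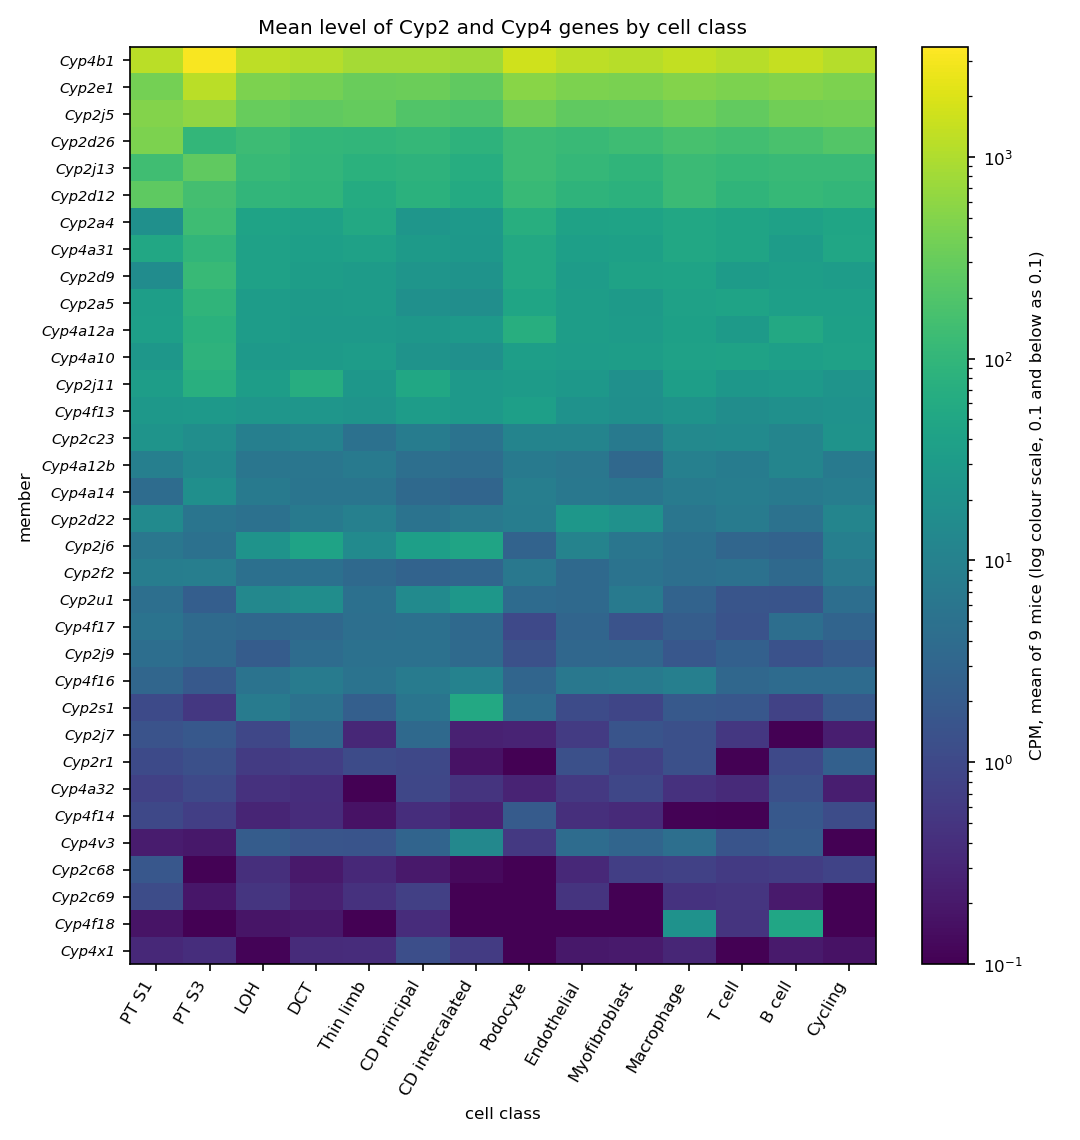
Mean level of the 34 members with at least 200 UMIs (rows) in each cell class (columns), as CPM averaged over the 9 mice on a log colour scale, with values of 0.1 and below drawn as 0.1. The upper rows are brightest in S3-like or S1-like PT cells yet stay visible in every class, whereas Cyp2s1 stands out in intercalated cells and Cyp4f18 in macrophages and B cells.

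The abundant members were read in every cell class, including classes not known for these enzymes. In lymphocytes, which lack a tubular origin, Cyp4b1 stood at 1218 CPM (491 to 1692 over the 9 mice), Cyp2e1 at 464 and Cyp2d26 at 159. Of lymphocytes 65.2% held a Cyp4b1 UMI at a median depth of 2165 UMIs, against 89.8% of PT cells at 2872, 70.2% of LOH cells at 2042.5 and 69.6% of DCT cells at 2188. Thinned to 1000 UMIs per cell, these shares were 46.4%, 74.9%, 53.6% and 50.8%. All 52 members together reached 4756 CPM in PT cells, 2735 in lymphocytes, 2720 in LOH cells and 2499 in DCT cells. The 16 PT marker genes, summed, moved in the same proportion: members amounted to 20.03% of the PT marker level in PT cells, 19.9% in T cells, 20.3% in B cells, 20.5% in LOH cells, 21.5% in DCT cells and 20.1% in macrophages.

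This shared level was measured gene by gene as the ratio of a class to lymphocytes, with UMIs summed over all mice. In LOH cells the median ratio was 0.957 over the 19 members with enough lymphocyte UMIs and 1.02 over the 16 PT markers. The medians were 0.909 and 0.895 in DCT cells, 0.925 and 0.866 in endothelial cells, 1.11 and 1.14 in macrophages and 0.652 and 0.648 in intercalated cells. In PT cells both stood near 1.8, at 1.80 for members and 1.81 for PT markers. Members with few lymphocyte UMIs, Cyp2j6 and Cyp2s1 among them, were left out, as was Cyp4f18. These medians therefore could not include members nearly absent from lymphocytes. A level at or below that of lymphocytes was taken as background. By this measure Cyp4b1, Cyp2e1 and most other abundant members could not be told from background in LOH and DCT cells at this depth. The PT marker medians ran from 0.648 in intercalated cells to 1.14 in macrophages, so the lymphocyte level need not be the background level of another class. Cyp4b1 itself was at 1254 CPM in LOH cells and 1114 in DCT cells, within the 491 to 1692 CPM of lymphocytes. This sets means beside a range over mice without pairing the mice, so it cannot show a difference within mice.

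**Figure D2:**
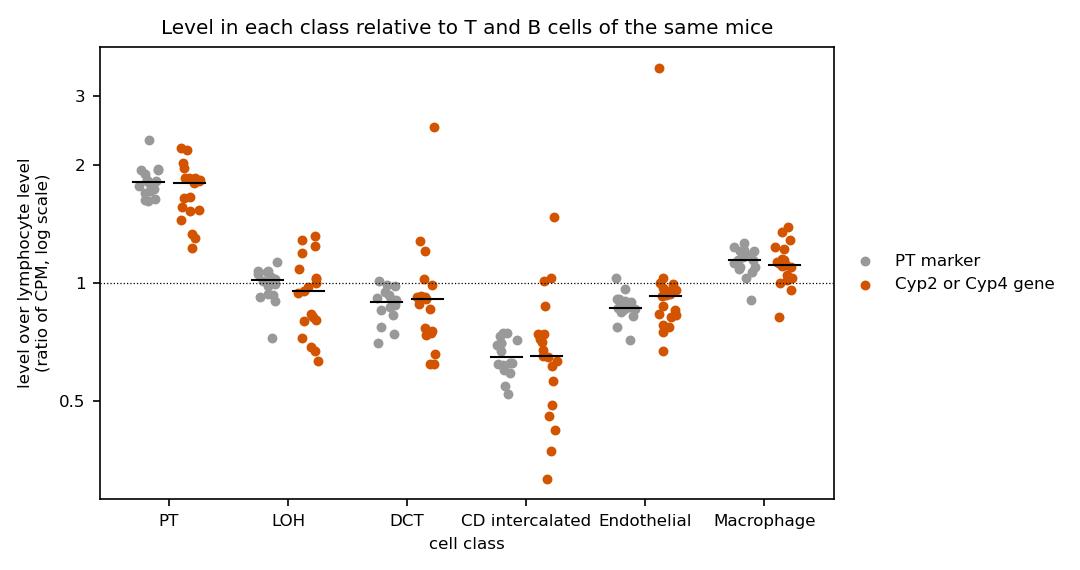
Ratio of the level in each of 6 classes to the level in T and B cells, with UMIs summed over all mice, on a log axis, for PT markers (grey, 16 genes) and Cyp2 and Cyp4 genes (orange, 19 genes), with bars at the medians. Outside PT cells the medians of both sets lie together, near 1 or below, and single members rise above them, up to 2.51 in DCT and 3.55 in endothelial cells. Members with few lymphocyte UMIs, such as Cyp2j6 and Cyp2s1, and Cyp4f18 are not drawn, so higher ratios of such members are missing.

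Some members stood above this background in classes other than PT. Among the 34 members with at least 200 UMIs, 14 had their highest mean level in PT cells, 5 in intercalated cells, 4 in principal cells, 3 in podocytes, 3 in cycling cells, 2 in B cells and 1 each in DCT, endothelial and thin limb cells. This tally takes the highest mean alone, not a level above background. Some entries rest on few molecules: Cyp4f14 was read in 1 of 418 podocytes and Cyp4a32 in 3 of 714 B cells. Cyp2s1, a P450 of epithelia outside the liver, was at 54.3 CPM in intercalated cells (27.1 to 73.7 over the mice) against 0.730 in PT cells and 1.35 in lymphocytes. Of intercalated cells 15.7% held a Cyp2s1 UMI, against 0.485% of lymphocytes at median depths of 3154 and 2165 UMIs. Cyp2j6, an epoxygenase relative, was highest in intercalated (44.6 CPM), DCT (43.4) and principal cells (37.5). It was lower in LOH (21.7) and thin limb cells (14.7), against 5.31 in PT cells and 3.10 in lymphocytes. The intercalated, DCT and principal values differed by less than their range over the mice.

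Cyp2j11 was read both in the proximal tubule and beyond it. Its means were 68.5 CPM in DCT cells (52.7 to 87.2), 54.1 in PT cells (34.8 to 72.1) and 51.5 in principal cells (38.0 to 71.4), ranges that overlap, against 26.0 in lymphocytes. Cyp2u1 and Cyp4v3, both fatty acid hydroxylases and both chosen after their values were seen, were highest in intercalated cells, at 25.7 and 13.1 CPM, against 1.56 and 1.67 CPM in lymphocytes. Cyp2d22 reached 25.2 CPM in endothelial cells (15.9 to 34.8), 20.01 in myofibroblasts (41 UMIs in all) and 6.91 in lymphocytes. Cyp4f18, which inactivates leukotrienes in white blood cells, was nearly absent from the tubule, at 0.112 CPM in PT cells, and stood at 49.7 CPM in B cells (up to 80.1) and 21.1 in macrophages (13.9 to 34.7). In T cells it was at 0.482 CPM. The lymphocyte class is therefore no background for Cyp4f18.

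Other members with a higher level in some class than in PT cells rested on few molecules or stayed near background. Among the members higher in T cells than in PT cells, Cyp4f16 had the highest level, 3.32 CPM from 9 UMIs, beside 2.34 CPM in PT cells. Cyp2c23, a renal epoxygenase, was at 21.8 CPM in cycling cells and 19.9 in PT cells, with 14.1 in lymphocytes. Cyp4a12a had its highest mean in podocytes, 69.9 CPM from 85 UMIs with 15.6 to 122 over the mice, against 61.4 in PT cells (34.5 to 86.7). Podocytes also held the summed PT markers at 15779 CPM, above the 13529 of lymphocytes, and whether this moved the podocyte value was not tested.

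To find out which members differed between groups, UMIs were summed per mouse within a class and tested with edgeR, and levels in the following paragraphs are CPM on library sizes scaled by TMM. Both comparisons share the AKI-CKD mice, so an unusual AKI-CKD library enters both. In PT cells 40 of the 52 members passed the filter on low counts. No member was called in AKI-CKD against Control at an edgeR adjusted p under 0.05, where 8 of 17946 genes (0.0446%) were called. An unadjusted p under 0.05 was found for 10 members (25%, against 11% of all genes), and DESeq2 called 1 of 37 members with an adjusted p, Cyp2d26 (1.3% of all genes with one). The mice of the groups did not overlap for 11 members (27.5%, against 20.3% of all genes), 9 of them higher in AKI-CKD (11.4% of all genes) and 2 lower (8.85%). Besides those described below, Cyp4f16, Cyp2c69, Cyp2c38 and Cyp2d10 were higher in every AKI-CKD mouse than in any Control mouse, all but Cyp4f16 named after their values were seen. The median log2 fold change was 0.004 over the members (-0.073 to 0.16 leaving out single mice) and -0.01 over all genes.

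In AKI-CKD + EGT against AKI-CKD, no member and no gene was called by edgeR (0.0%). An unadjusted p under 0.05 was found for 7 members (17.5%, against 15% of all genes), and DESeq2 called 1 of 40, Cyp4a12a (2.5% of all genes with an adjusted p). The mice did not overlap for 6 members (15%, against 21.2%), which were higher with EGT for Cyp4a12a and Cyp2j9 and lower for Cyp2d26, Cyp2c23, Cyp2d22 and Cyp4x1, of which Cyp2j9 and Cyp4x1 are named after their values were seen. The median log2 fold change was -0.11 over the members (-0.22 to 0.03 leaving out single mice) and -0.01 over all genes.

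Among the 12 most abundant members, Cyp2d26 was the one whose mice did not overlap in either comparison. In PT cells it was at 216, 213 and 159 CPM in Control, 282, 368 and 331 in AKI-CKD and 268, 208 and 168 in AKI-CKD + EGT mice. All AKI-CKD mice were above all mice of the other groups, and the Control and EGT mice overlapped. The log2 fold change was 0.74 (SE 0.20, edgeR adjusted p = 0.316) for AKI-CKD against Control and -0.61 (SE 0.20, edgeR adjusted p = 0.238) for the EGT comparison, neither called. With DESeq2 the first passed, at an adjusted p of 0.0313. In simulated PT data DESeq2 called 36 unchanged genes and edgeR 8. The separation was seen in S3-like cells, where Cyp2d26 is low, with 92.4, 90.1 and 65.4 CPM in Control, 144, 152 and 156 in AKI-CKD and 103, 81.2 and 61.2 in AKI-CKD + EGT mice (log2 fold changes 0.86 and -0.88, edgeR adjusted p = 0.184 and 0.203). These S3-like values lie at or under the mean of 159 CPM in lymphocytes (103 to 225 over the mice), the level taken here as background. The part of background in them was not tested. In S1-like cells the AKI-CKD mice also lay above every Control mouse but overlapped the EGT mice, and the log2 fold changes were 0.46 and -0.43 (edgeR adjusted p = 0.316 and 0.312).

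The omega-hydroxylase Cyp4a12a had its lower values in AKI-CKD. Its PT level was 49.6, 73.8 and 89.2 CPM in Control, 35.9, 39.8 and 51.2 in AKI-CKD and 70.3, 76.5 and 62.5 in AKI-CKD + EGT mice. AKI-CKD mice were low, with 1 Control mouse inside their range, and every EGT mouse was above them. The log2 fold changes were -0.74 (SE 0.21, edgeR adjusted p = 0.330) and 0.72 (SE 0.21, edgeR adjusted p = 0.219), and with DESeq2 the second passed at an adjusted p of 0.0467. In S3-like cells neither comparison overlapped, at 68.2, 98.0 and 110 CPM in Control, 45.5, 54.4 and 56.8 in AKI-CKD and 86.1, 103 and 95.1 in AKI-CKD + EGT mice (log2 fold changes -0.82 and 0.86, edgeR adjusted p = 0.1701 and 0.203). Its near copy Cyp4a12b, chosen after its values were seen, had the opposite sign in AKI-CKD against Control, with a log2 fold change of 0.65 (edgeR adjusted p = 0.491). As the copies share sequence, which of them the reads came from is uncertain.

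**Figure D3:**
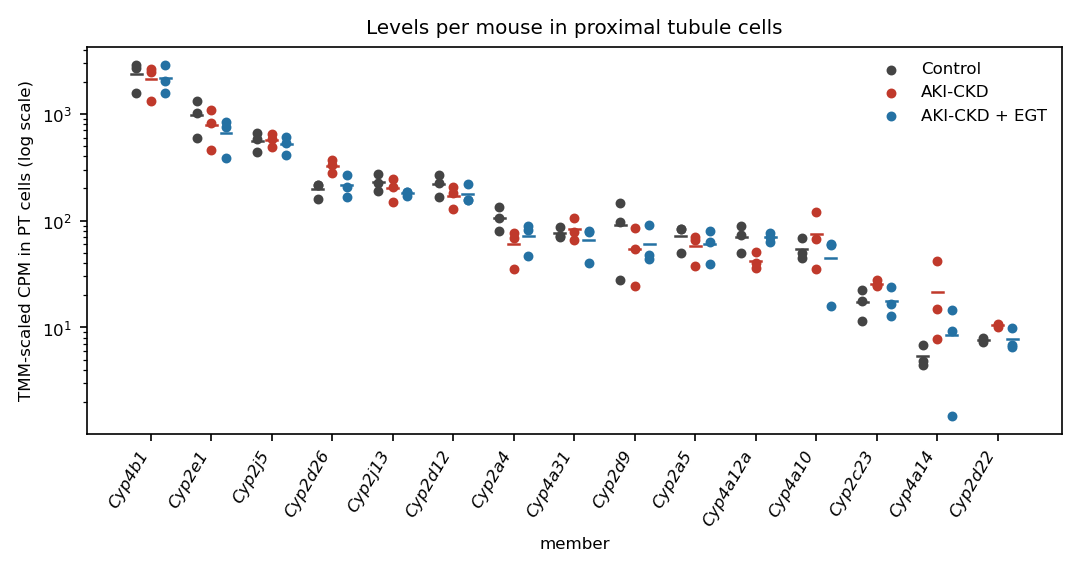
Level of 15 members in PT cells of each mouse, in TMM-scaled CPM on a log axis, with 1 point per mouse, colours for Control, AKI-CKD and AKI-CKD + EGT, and bars at the group means. Cyp2d26 is the abundant gene whose AKI-CKD mice (282 to 368) lie above all others, Cyp4a12a lies lowest in AKI-CKD, and for Cyp4b1 the groups overlap.

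No other Cyp4a gene was called in PT cells either. Cyp4a10 was at 44.7, 49.5 and 69.0 CPM in Control, 66.9, 35.3 and 121 in AKI-CKD and 60.01, 59.4 and 15.8 in AKI-CKD + EGT mice, so that the groups overlapped (log2 fold changes 0.45 and -0.72, neither called). The second became -0.31 without AKI-CKD + EGT mouse 3 and -0.18 without AKI-CKD mouse 3, and the first -0.087 without the latter. Cyp4a31 gave 0.12 and -0.33. Cyp4a32, low throughout, gave -0.70 and 1.11 with overlapping mice, the signs of Cyp4a12a. Cyp4a14, a lipid-induced member chosen after its values were seen, was at 6.87, 4.86 and 4.44 CPM in Control, 14.8, 7.80 and 42.0 in AKI-CKD and 14.7, 9.31 and 1.48 in AKI-CKD + EGT mice. All AKI-CKD mice were above the Control mice, and mouse 3 of that group was far above the rest. The log2 fold change was 2.00 (SE 0.71, edgeR adjusted p = 0.379), and 1.08 without AKI-CKD mouse 3. For AKI-CKD + EGT against AKI-CKD it was -1.35, and -0.42 without that mouse or -0.84 without AKI-CKD + EGT mouse 3.

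Among the epoxygenases, Cyp2j5 overlapped between all groups, at 441 to 660 CPM in Control, 486 to 643 in AKI-CKD and 415 to 609 in AKI-CKD + EGT mice, with log2 fold changes of 0.03 and -0.13. Cyp2j13 gave -0.18 and -0.16 with overlapping mice. Cyp2c23 was at 11.5, 17.8 and 22.4 CPM in Control, 24.8, 24.4 and 27.9 in AKI-CKD and 23.9, 16.6 and 12.9 in AKI-CKD + EGT mice. Its AKI-CKD mice were the 3 highest, with log2 fold changes of 0.58 (SE 0.25, edgeR adjusted p = 0.447) and -0.53 (SE 0.25, edgeR adjusted p = 0.352). Cyp2j7, chosen after its values were seen, was low throughout, with 1.55 to 1.99 CPM for Control mice and 0.679 to 1.205 CPM for AKI-CKD mice (log2 fold change -0.95, edgeR adjusted p = 0.334).

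The drug and steroid hydroxylases other than Cyp2d26 were not called in PT cells by edgeR or DESeq2 with all mice. Cyp2a4 was at 79.5, 106 and 135 CPM in Control, 68.3, 35.4 and 76.4 in AKI-CKD and 81.1, 88.3 and 47.0 in AKI-CKD + EGT mice. Its AKI-CKD mice were below every Control mouse (log2 fold change -0.83, SE 0.31, edgeR adjusted p = 0.396), whereas the EGT mice overlapped them (0.26). Its near copy Cyp2a5 gave -0.32 and 0.07. Cyp2d9 gave -0.73 with an SE of 0.56, its Control mice alone running from 27.9 to 148 CPM. Cyp2d12 gave -0.35 and 0.05, and Cyp2e1 gave -0.32 and -0.24, with overlapping mice. Cyp2d22 had 7.32 to 7.91 CPM in Control, 10.1 to 10.8 in AKI-CKD and 6.56 to 9.88 in AKI-CKD + EGT mice (log2 fold changes 0.47 and -0.43, edgeR adjusted p = 0.362 and 0.260). For Cyp2d22 the second value was -0.65 with an edgeR adjusted p of 0.0485 without AKI-CKD + EGT mouse 1, when 1.13% of all genes were called. The AKI-CKD mouse with the lowest Cyp2a4, Cyp2a5, Cyp2d9 and Cyp2e1 was mouse 2, whose library was also lowest in Kap, and without that mouse the Cyp2a4 log2 fold changes were -0.56 and -0.013.

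Cyp4b1, the most abundant member, did not separate the groups in PT cells. It was at 1556, 2837 and 2706 CPM in Control, 2608, 1329 and 2478 in AKI-CKD and 2026, 2893 and 1568 in AKI-CKD + EGT mice. Each group held both high and low mice, and the log2 fold changes were -0.15 (SE 0.32, edgeR adjusted p = 0.882) and 0.02 (SE 0.32, edgeR adjusted p = 0.988). Leaving out single mice moved them between -0.37 and 0.11 (without Control mouse 1 and AKI-CKD mouse 2), and between -0.26 and 0.21 (without AKI-CKD + EGT mice 2 and 3). Summed over all kept cells the values were -0.16 (SE 0.35, edgeR adjusted p = 0.931) and -0.06 (SE 0.35, edgeR adjusted p = 0.955).

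**Figure D4:**
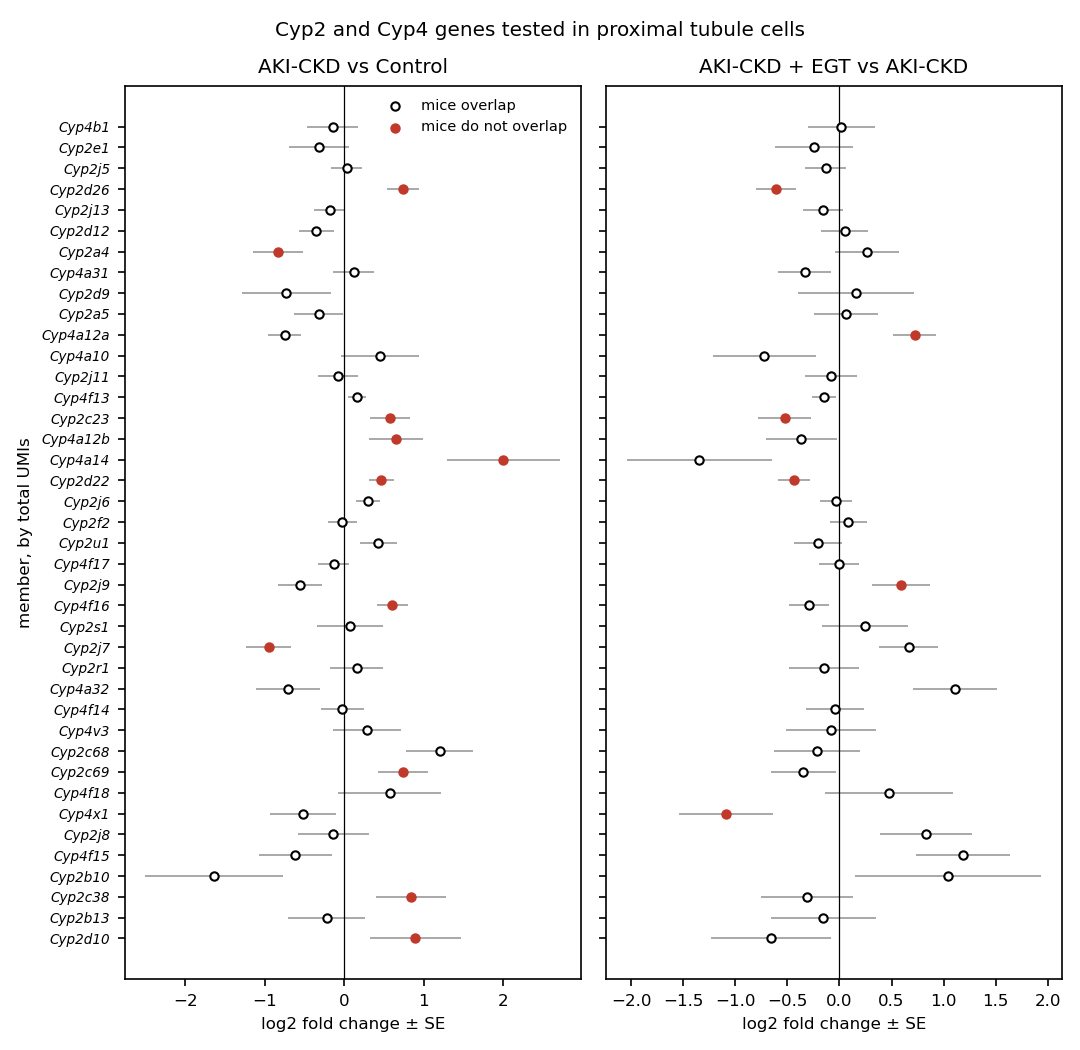
Log2 fold change with its standard error for the 40 members tested in PT cells, in order of total UMIs, for AKI-CKD against Control (left) and AKI-CKD + EGT against AKI-CKD (right), filled where the mice of both groups did not overlap. Filled points number 11 on the left and 6 on the right, none of them passed the adjusted threshold of edgeR (DESeq2 called Cyp2d26 on the left and Cyp4a12a on the right), and Cyp4a14 lies furthest to the right on the left-hand side at 2.00.

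In LOH cells 23 members were tested. In AKI-CKD against Control none was called by edgeR (0.0288% of 10422 genes were), DESeq2 called 1 of 15 with an adjusted p, Cyp2a4 (0.305% of such genes), and 8 had an unadjusted p under 0.05 (34.8%, against 10.7% of all genes). The mice did not overlap for 8 members (against 16.2% of all genes), and the median log2 fold change was -0.19 (-0.01 over all genes). It was -0.54 without the cells richest in PT marker UMIs. Only 18 members were tested there in both comparisons, so the members differed as well as the cells. In AKI-CKD + EGT against AKI-CKD none was called by edgeR (0.413% of genes were), DESeq2 called 1 of 19 with an adjusted p, Cyp4a12a (0.893% of such genes), 9 had an unadjusted p under 0.05 (39.1%, against 14.3%), and 8 did not overlap (against 16.9%), with a median of 0.07 (0.01 over all genes), or 0.43 without those cells. These members are largely those read at background level in LOH cells. Cyp4a12a was at 27.6, 33.7 and 50.7 CPM in Control, 12.6, 14.7 and 26.8 in AKI-CKD and 29.5, 49.0 and 46.8 in AKI-CKD + EGT mice, with no overlap in either comparison (log2 fold changes -1.01 and 1.22, SE 0.30 and 0.30, edgeR adjusted p = 0.311 and 0.0827). Leaving out single mice kept the second value between 1.07 and 1.63, and its edgeR adjusted p fell to 0.0271 without AKI-CKD + EGT mouse 1, when 2.52% of all genes were called. Cyp2a4 gave -1.15 (edgeR adjusted p = 0.164) and 0.75. Cyp2d12 gave -0.78 and 0.62 (edgeR adjusted p = 0.182 and 0.142) and Cyp2j5 -0.39 and 0.38 (0.437 and 0.333), without overlap in either comparison. The same held for Cyp2f2, chosen after its values were seen and low throughout, at -1.81 and 1.71. Cyp2j6 and Cyp4f16 separated with the opposite signs in both comparisons.

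In DCT cells 26 members were tested, and neither comparison called a member or any other gene with edgeR (0.0% in both), nor a member with DESeq2, which gave an adjusted p for 16 and 7 members and called 0.111% and 1.71% of such genes. An unadjusted p under 0.05 was found for 6 and 3 members (9.94% and 12.8% of all genes), and 5 did not overlap in each comparison (19.2%, against 16.6% and 17.3% of all genes). The medians were 0.03 and 0.06 (-0.02 and 0.01 over all genes) and their sign changed with the setting: the first was -0.35 without the Harmony correction, which aligns libraries before clustering, and -0.22 without the cells richest in PT marker UMIs, and leaving out single mice they ran from -0.43 to 0.19 and from -0.17 to 0.44. Without Harmony 5106 cells were named DCT, against 11373 with it, so that setting also changed which cells were counted. Without the cells richest in PT marker UMIs 25 members were tested. Cyp4a12a was at 25.9, 34.9 and 36.3 CPM in Control, 15.3, 11.6 and 18.6 in AKI-CKD and 26.3, 43.7 and 42.4 in AKI-CKD + EGT mice. The AKI-CKD mice were the 3 lowest (log2 fold changes -1.12 and 1.33, SE 0.25 and 0.24, edgeR adjusted p = 0.337 and 0.256), and the edgeR adjusted p of the second was 0.0278 without AKI-CKD + EGT mouse 1, when 2.41% of all genes were called.

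Cyp4a12a, Cyp2a4 and Cyp2d26 gave values of the same sign in cells outside the tubule. In lymphocytes Cyp4a12a was at 28.8, 57.6 and 52.6 CPM in Control, 9.31, 10.5 and 46.1 in AKI-CKD and 35.0, 57.1 and 63.3 in AKI-CKD + EGT mice, giving log2 fold changes of -1.02 and 1.24. The third AKI-CKD mouse lay within the range of the other groups. In macrophages they were -1.15 and 1.12 and in endothelial cells -0.79 and 0.95. For Cyp2a4 in AKI-CKD against Control, the log2 fold change was -0.98 in lymphocytes, -1.10 in macrophages and -1.17 in endothelial cells, beside -1.15 in LOH and -1.14 in DCT cells. Cyp2d26 gave 0.52 and -0.79 in lymphocytes, 0.45 and -0.41 in macrophages and 0.45 and -0.28 in endothelial cells, beside 0.32 and -0.44 in LOH and 0.27 and -0.27 in DCT cells, so its signs in PT cells were also those in these classes. None of these passed the adjusted threshold of edgeR. The LOH and DCT values of Cyp4a12a, Cyp2a4 and Cyp2d26 thus stood beside values of like size in lymphocytes, whose level of these genes was taken as background, and the part of background in them was not tested.

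**Figure D5:**
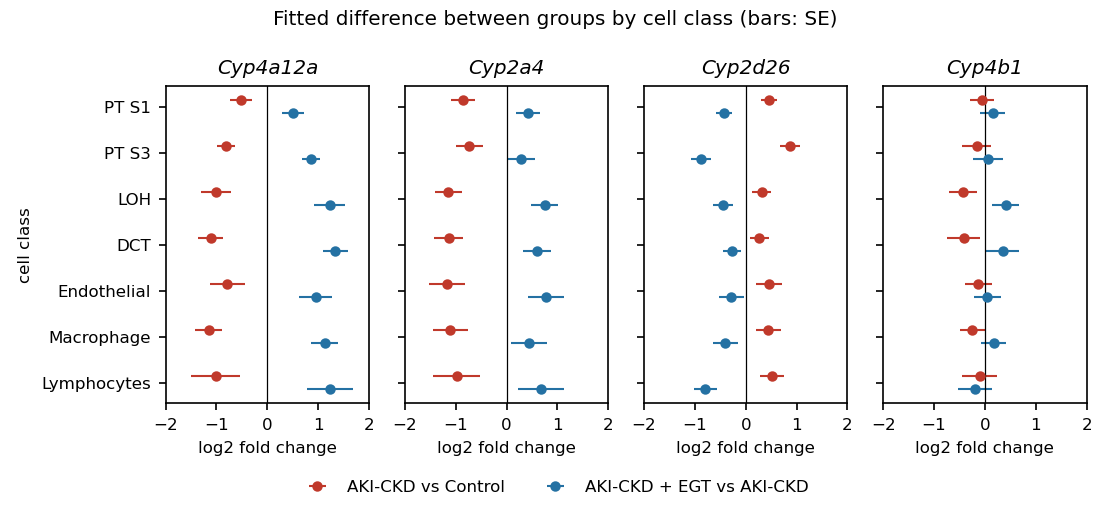
Fitted log2 fold change with its standard error for Cyp4a12a, Cyp2a4, Cyp2d26 and Cyp4b1 in 7 cell classes, red for AKI-CKD against Control and blue for AKI-CKD + EGT against AKI-CKD. Cyp4a12a lies left of 0 in red and right of 0 in blue in every class shown, lymphocytes included, and Cyp2d26 lies the other way round. The bars of Cyp4b1 reach 0 in PT cells and stop short of it in LOH and DCT cells.

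Cyp4b1 in LOH cells was at 1051, 1656 and 1420 CPM in Control, 1324, 566 and 1174 in AKI-CKD and 1059, 1819 and 1179 in AKI-CKD + EGT mice. The low value was that of AKI-CKD mouse 2, and the other mice of the groups overlapped. The log2 fold changes were -0.43 (SE 0.27, edgeR adjusted p = 0.587) and 0.41 (SE 0.27, edgeR adjusted p = 0.524), and -0.14 and 0.12 without that mouse. In DCT cells Cyp4b1 gave -0.41 (SE 0.32, edgeR adjusted p = 0.684) and 0.35 (SE 0.32, edgeR adjusted p = 0.670), and without AKI-CKD mouse 2 these became -0.061 and -0.0077. That mouse was lowest in all members summed, with 1357 CPM in LOH cells, 1252 in DCT cells and 1508 in lymphocytes, where the other AKI-CKD mice had 3021 and 3633 CPM.

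Of the members whose level in distal cells stood above that of lymphocytes, none was called by edgeR with all mice. In LOH cells Cyp2j6 was at 15.9, 15.5 and 23.9 CPM in Control, 35.2, 28.2 and 24.9 in AKI-CKD and 15.2, 21.3 and 14.6 in AKI-CKD + EGT mice. The AKI-CKD mice were the 3 highest, with log2 fold changes of 0.67 (SE 0.25, edgeR adjusted p = 0.357) and -0.78 (SE 0.25, edgeR adjusted p = 0.164). In DCT cells Cyp2j6 overlapped between groups (0.52 and -0.51). Cyp2u1 in DCT cells, chosen after its values were seen, was at 11.1, 17.3 and 10.99 CPM in Control, 24.2, 30.4 and 17.5 in AKI-CKD and 20.2, 11.4 and 11.6 in AKI-CKD + EGT mice (log2 fold changes 0.89 and -0.78, edgeR adjusted p = 0.418 and 0.309). Without AKI-CKD + EGT mouse 1 the second was -1.09 with an edgeR adjusted p of 0.0493. In LOH cells, where its mean of 13.0 CPM was also above lymphocytes, Cyp2u1 overlapped between groups, with log2 fold changes of 0.11 and -0.17. Cyp2j11 gave 0.12 and -0.002 in DCT cells and -0.47 and 0.70 in LOH cells, the last without overlap (edgeR adjusted p = 0.281). Group means of Cyp2j11 in LOH cells ran from 25.4 to 40.3 CPM, the lowest near its lymphocyte level given above. The part of background in them was not tested. Cyp2s1 gave 0.80 and -0.52 in DCT cells, both without overlap (edgeR adjusted p = 0.478 and 0.492), and 0.22 and -0.05 in LOH cells with overlap. Cyp4f18 in macrophages overlapped between all groups, at 15.97 to 23.5 CPM for Control mice, 17.9 to 36.7 CPM for AKI-CKD mice and 13.3 to 23.7 CPM for AKI-CKD + EGT mice.

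When all kept cells were summed, 44 members were tested. EdgeR called none in AKI-CKD against Control (0.0199% of 20144 genes) or in AKI-CKD + EGT against AKI-CKD (0.00496%), nor did DESeq2 (0.842% and 1.43% of the genes with an adjusted p), and 9 and 7 had an unadjusted p under 0.05 (8.02% and 12.7% of all genes). The mice did not overlap for 12 and 4 members (15.8% and 18.3% of all genes). In such sums, fewer cells of a type and less RNA per cell cannot be told apart. The other 8 members were too sparse to be tested there.

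The partners and regulators of these enzymes were taken from lists of 9 redox partners and epoxide hydrolases, 21 genes of the lipid sensor PPARA and its targets, 12 further nuclear receptors and factors, 5 androgen-responsive kidney genes, 18 other P450 genes and 16 other arachidonic acid enzymes. In PT cells only Ephx1 among those tested was called by edgeR, in AKI-CKD against Control. Ephx1, the microsomal epoxide hydrolase that acts on P450 products, was at 1.43, 1.14 and 1.03 CPM in Control, 6.86, 10.8 and 14.6 in AKI-CKD and 4.69, 3.41 and 3.52 in AKI-CKD + EGT mice. It rose by 3.16 on the log2 scale (SE 0.28, edgeR adjusted p = 0.00472), and AKI-CKD + EGT against AKI-CKD gave -1.47 (SE 0.26, edgeR adjusted p = 0.209) with no overlap. In LOH cells Ephx1 was at 54.1, 48.8 and 47.9 CPM in AKI-CKD and 27.7, 27.2 and 19.98 CPM in AKI-CKD + EGT mice and fell by 1.05 (edgeR adjusted p = 0.0447). Ephx1 in lymphocytes was at 5.76 to 16.6 CPM for Control mice, 29.5 to 39.5 CPM for AKI-CKD mice and 21.01 to 33.8 CPM for AKI-CKD + EGT mice, above the PT level in every mouse, with log2 fold changes of 1.47 and -0.35 (neither called), and the part of background in the PT and LOH values was not tested. The soluble hydrolase Ephx2 and the reductase Por overlapped between groups in PT cells.

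Of the PPARA list all 21 genes were tested in PT cells and none was called in either comparison, with 3 and 2 genes at an unadjusted p under 0.05 and medians of 0.11 and -0.18. DESeq2 calls were not counted for these lists. Of the 5 androgen-responsive genes none was called in PT cells, and all 5 were below 0 in AKI-CKD against Control (median -0.40, with 2 at an unadjusted p under 0.05). Without AKI-CKD mouse 2, the library lowest in Kap, 3 of the 5 were below 0 and the median was -0.18. In the EGT comparison the median was -0.06, with 1 gene at an unadjusted p under 0.05. Slco1a1, an organic anion transporter of that list, was at 46.8, 99.4 and 127 CPM in Control, 40.1, 10.1 and 29.96 in AKI-CKD and 29.3, 92.9 and 86.9 in AKI-CKD + EGT mice. Within LOH cells Slco1a1 rose by 2.29 (SE 0.43, edgeR adjusted p = 0.0303) in AKI-CKD + EGT against AKI-CKD, from 17.1, 4.88 and 10.6 CPM to 20.5, 64.5 and 58.5 CPM, the only list gene called higher there. In lymphocytes Slco1a1 was at 31.02, 3.95 and 20.3 CPM in AKI-CKD and 7.00, 45.9 and 35.7 CPM in AKI-CKD + EGT mice (log2 fold change 1.04, not called), and 4 of these 6 LOH values lie within that range. The part of background in the LOH values was not tested. In PT cells the other nuclear receptors and factors, other P450 genes and other arachidonic acid enzymes tested had medians of 0.07, -0.003 and 0.001 in AKI-CKD against Control and of 0.0072, 0.14 and 0.18 in the EGT comparison, with no gene called. Of 12, 10 and 14 genes tested, 1, 1 and 3 had an unadjusted p under 0.05 in the first comparison (11% of all genes) and 0, 0 and 7 in the second (15%).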

How the data were processed

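Kidneys of 9 mice were profiled by droplet single-cell RNA sequencing. The deposited matrices hold UMI counts per gene and cell, made by the authors with PISA 1.0 per the file headers, and the submitters' processing notes name build GRCm39. They are not normalised. Barcodes with at least 1000 UMIs, 500 genes and at most 15% mitochondrial UMIs were kept. Libraries held 70106161 to 101525691 UMIs, and sparse members are limited by counting error.

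Clusters were rebuilt from genes seen in at least 5 cells (2000 variable genes without Cyp2 and Cyp4 genes, 30 components, own implementation of Harmony, 20 neighbours, resolution 1.1; Python 3.11.15, numpy 2.4.6, scipy 1.17.1, scikit-learn 1.9.0, igraph 0.11.9), and named from marker lists when 3 markers were at least 2-fold raised, with a fold of 1.5 for PT segments. A cluster with over 5% haemoglobin UMIs was left out, a rule set after the clusters were seen. Cell classes are therefore rebuilt, and can differ from those of the study. Doublets were scored with an own implementation of the Scrublet method and removed only as an alternative (the 6% with the highest scores).

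UMIs were summed per mouse and class and tested with edgeR 4.0.16 (TMM, quasi-likelihood test, all 9 mice in 1 fit, Benjamini-Hochberg adjustment over all genes tested, threshold 0.05) in R 4.3.3 with limma 3.58.1. DESeq2 1.42.0 was an alternative, beside other normalisations, filters, library sizes, cell filters and leaving out each mouse. Replicates are separate mice, so p-values measure the spread between mice. Shares of cells were also computed after thinning each cell to 1000 UMIs. The fits were first tested on simulated data. For PT, with 100 genes changed by 1 on the log2 scale, edgeR called 92 of them and 8 unchanged genes. DESeq2 called 88 of them and 36 unchanged genes. For DCT each tool called 9 unchanged genes. These counts hold for the simulated data and do not give the share of real changes that would be called. In the real PT cells Cyp4a14, at a log2 fold change of 2.00 in AKI-CKD against Control, was not called by edgeR.

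Genes named in the text were the 12 highest members in PT cells, Cyp4b1 in every class tested, in each other class the highest of the members whose level there exceeded that in PT cells, any member called, and called genes of the pathway lists. Others are marked as chosen after their values were seen. The members, lists and tests were chosen with earlier results of these data known. Promoters came from RefSeq (GRCm38.p6) and transcript ends from GENCODE M21 (GRCm38), a different build from that of the counts.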

Additional observations from a re-analysis of the deposited data

How the results depend on the processing

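No member was called in any class or comparison under the main edgeR analysis, and calls appeared only under some alternatives. The cause was not tested. With DESeq2, 1 member was called in each comparison in PT and LOH cells. With no filter on low counts, 4 members (Cyp2a4, Cyp2d12, Cyp4a12a, Cyp4a14) and 2 (Cyp4a12a, Cyp4a14) of 46 were called in LOH cells, against 0.685% and 1.73% of all genes, and 6 (Cyp2a4, Cyp2a5, Cyp2d9, Cyp2u1, Cyp4a12a, Cyp4a14) and 2 (Cyp2u1, Cyp4a12a) of 51 in DCT cells, against 1.03% and 1.97%. In LOH cells, AKI-CKD + EGT against AKI-CKD, 1 member, Cyp4a12a, was called after removing doublets (0.276% of all genes) and 2, Cyp2d12 and Cyp4a12a, without the cells richest in PT marker UMIs (0.606%). Leaving out single mice gave 0 to 1 calls in PT cells, 0 to 1 in LOH cells and 0 to 2 in DCT cells for that comparison, every call without AKI-CKD + EGT mouse 1, when 1.13%, 2.52% and 2.41% of all genes were called against 0.0%, 0.413% and 0.0% with all mice.

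The median log2 fold change over members moved in DCT cells to 0.36 with no filter (AKI-CKD + EGT against AKI-CKD), where 51 members were tested. It moved to -0.35 and 0.32 without the Harmony correction. Without that correction 5106 cells were named DCT, against 11373 with it, so the cells differed as well. Without the cells richest in PT markers the median was -0.54 and 0.43 in LOH cells and -0.22 in DCT cells (AKI-CKD against Control). That setting tested 18 members in LOH cells and 25 in DCT cells, against 23 and 26 in the main fits, so the members differed as well. Leaving out single mice, medians ran, for the 2 comparisons in turn, from -0.073 to 0.16 and -0.22 to 0.03 in PT cells, -0.53 to -0.10 and -0.01 to 0.31 in LOH cells, -0.43 to 0.19 and -0.17 to 0.44 in DCT cells, and -0.05 to 0.15 and -0.23 to -0.06 over all cells.

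Signs of single members reversed as follows. In PT cells, AKI-CKD against Control, Cyp2j5 was -0.0092 without Harmony, when 115141 cells were named PT against 158269 with it. It was -0.075 in S3-like cells only, an alternative chosen after seeing the data. In AKI-CKD + EGT against AKI-CKD, Cyp4b1 was -0.017 with no filter and -0.0095 with the replicate block. Leaving out single mice, values in AKI-CKD against Control ran from -0.39 to 0.14 for Cyp4b1 over all cells, and in PT cells from -0.37 to 0.11 for Cyp4b1, -0.11 to 0.17 for Cyp2j5, -0.083 to 0.27 for Cyp4a31 and -0.087 to 0.80 for Cyp4a10. In AKI-CKD + EGT against AKI-CKD they ran from -0.36 to 0.16 for Cyp4b1 over all cells and -0.0077 to 0.62 in DCT cells, and in PT cells from -0.26 to 0.21 for Cyp4b1, -0.53 to 0.048 for Cyp2e1, -0.27 to 0.015 for Cyp2j5, -0.34 to 0.011 for Cyp2j13, -0.14 to 0.19 for Cyp2d12, -0.013 to 0.51 for Cyp2a4, -0.27 to 0.63 for Cyp2d9 and -0.20 to 0.31 for Cyp2a5. With the replicate block 0 members were called in every class tested. The deviations of same-numbered mice gave 36 correlations, more than there are such pairs of mice. These ran from -0.45 to 0.38, 3 of them above 0.1, so the numbers were not taken to pair the mice.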
